A study of Mus musculus with 4 samples.

Results

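Replication-dependent histone genes supply the H1, H2A, H2B, H3 and H4 proteins that package newly copied DNA. In the mouse they lie in clusters named Hist1, Hist2, Hist3 and Hist4. Members were taken as every row whose symbol starts with Hist1h, Hist2h, Hist3h or Hist4h, which gave 40 rows of the 14159 in the table. One row carries both Hist1h4m and Hist1h4n, so the rows cover 41 of the 70 such genes that GENCODE M21 annotates, and the other genes were not analysed here.

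The libraries came from primary mouse squamous cell carcinomas that had not been cultured. The control group had 2 libraries, called control a and control b because their columns carry the same name, and the other group had 2 libraries from tumours with an inducible knockout of KDM4A, called knockout 1 and knockout 2. The gene is Kdm4a, which encodes a demethylase of histone H3 lysines. The strain, the age of the animals, the inducing agent and the cell type in which the knockout was driven are not stated in the labels, which also do not say if the libraries of a group are separate animals. Polyadenylated RNA was sequenced, and the values are FPKM, fragments scaled to the length of the transcript and to the number of mapped fragments.

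Most replication-dependent histone mRNAs are not polyadenylated. They end just after a short stem-loop in the 3′ untranslated region, which is bound by the protein SLBP, and they accumulate in S phase, when DNA is copied, and are degraded when replication ends. Selection of polyadenylated RNA therefore leaves most of this pool out. The values are taken here as the polyadenylated fraction of each gene's RNA, and carry-over of other RNA was not tested. Some histone genes also give polyadenylated transcripts that run past the stem-loop, and such forms are known from cells that have left the cell cycle.

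The stem-loops are shown for 6 genes whose annotated transcripts run past the hairpin, chosen because the results below turn on their levels. Each was read from the GENCODE M21 transcript, 5′ to 3′, with the 16 bases of the hairpin in capitals and 5 bases on each side in lower case.
Hist1h4i: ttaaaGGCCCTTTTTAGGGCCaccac
Hist3h2a: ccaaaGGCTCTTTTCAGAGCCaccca
Hist1h1c: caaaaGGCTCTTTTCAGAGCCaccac
Hist1h2bg: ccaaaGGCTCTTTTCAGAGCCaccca
Hist1h4d: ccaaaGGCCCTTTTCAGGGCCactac
Hist1h4c: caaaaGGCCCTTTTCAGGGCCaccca
The hairpin of Hist1h4i, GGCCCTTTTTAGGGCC, was found in 2 of the annotated histone genes, Hist1h4i and Hist2h4. That of Hist3h2a, Hist1h1c and Hist1h2bg, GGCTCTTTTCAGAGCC, was found in 26 genes, and that of Hist1h4d and Hist1h4c, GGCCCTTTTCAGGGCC, in 7. The hairpins of the latter 5 genes are thus shared with several others of the family, whereas that of Hist1h4i is shared with Hist2h4. The annotated transcript of Hist1h4i ran 330 bases past the hairpin, that of Hist3h2a 1643 bases, that of Hist1h1c 840 bases and that of Hist1h2bg 155 bases. The annotated transcript of Hist1h2bc has 2 exons and held no matching hairpin in the 742 bases after its stop codon.

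Kdm4a, the targeted gene, was at 29.6 and 27.7 FPKM in controls a and b and at 14.9 and 14.7 FPKM in knockouts 1 and 2. Its log2 fold change, on the log2(FPKM + 1) scale used throughout, was -0.91 ± 0.07 (SE, n = 2 per group, limma, adjusted p = 0.00077). The libraries correlated at 0.973 between controls, 0.972 between knockouts and 0.876 to 0.889 across groups, as Pearson's r across genes, which are not independent replicates. Of 12046 genes tested, 30.1% were called higher and 33.8% lower in the knockout libraries at an adjusted p under 0.05, so a call by itself is common in this comparison. In bulk tissue, a change in the number of cells of a type and a change in RNA per cell cannot be told apart.

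Histone transcripts were low for the most part in all 4 libraries. Of the 40 members, 33 stayed under 5 FPKM in every library and 8 stayed under 1. The smallest value above 0 was 0.184. A mean of at least 5 FPKM was reached by 4 members, namely Hist1h4i, Hist3h2a, Hist1h1c and Hist1h2bc, and these held 75.6% to 83.6% of the summed histone level of a library. In 7 members both control libraries were listed at 0, and no member was listed at 0 in both knockout libraries. The same share over all genes was not counted, and an exact 0 can be a failed estimate, so no contrast is drawn from this.

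**Figure D1:**
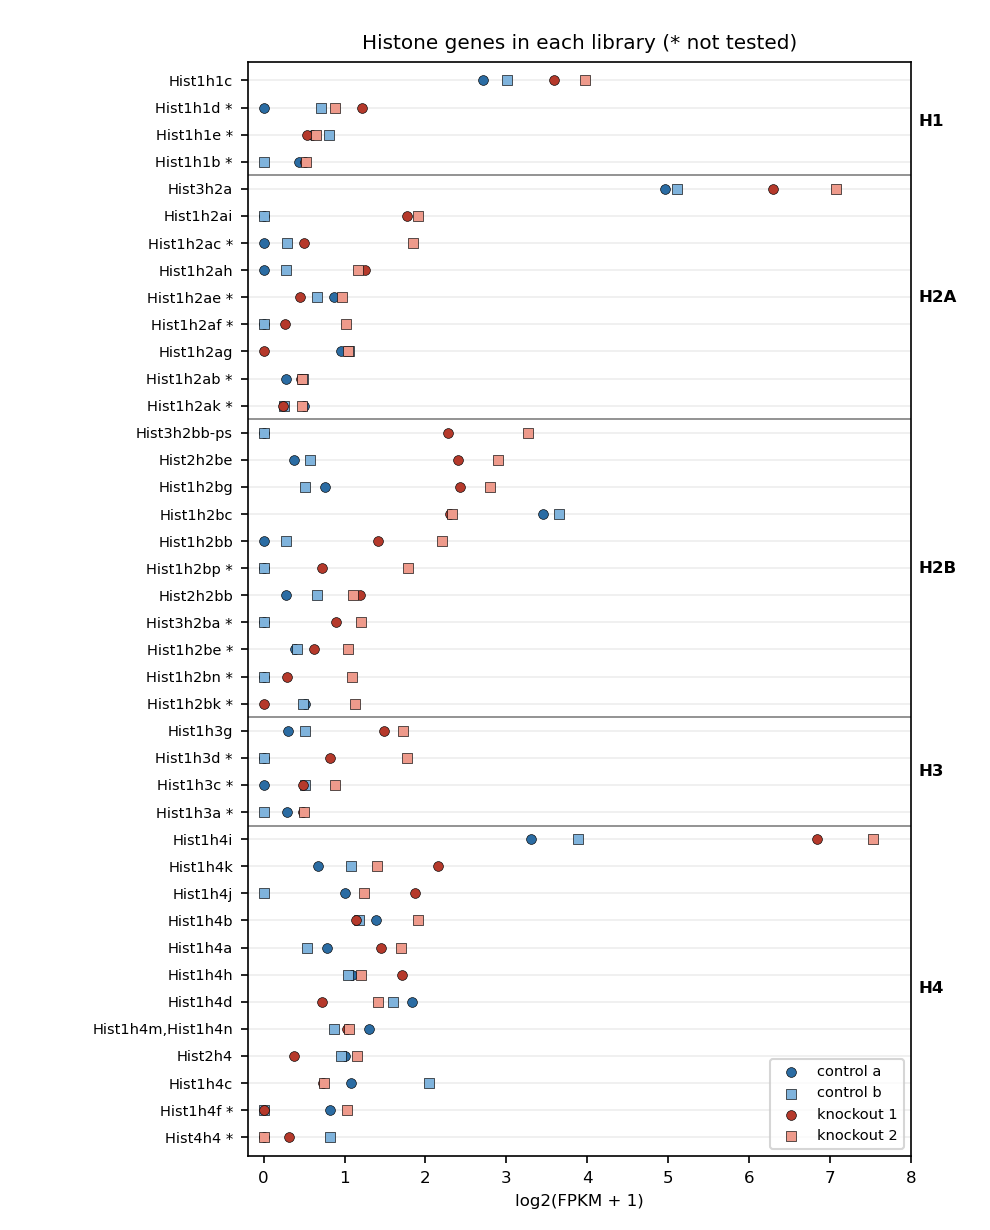
Level of each of the 40 histone genes as log2(FPKM + 1) in the 4 libraries, grouped by histone class; blue marks are control libraries, red marks knockout libraries, and an asterisk marks a gene that was not tested. Hist1h4i and Hist3h2a reach 185 and 134 FPKM in knockout 2, while most genes lie near the left edge.

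The sum over all 40 members was 72.3 and 85.0 FPKM in controls a and b and 249 and 403 FPKM in knockouts 1 and 2, a ratio of group means of 4.15. Knockout 2 was the higher knockout library in the sum and in 33 single members. In both knockout libraries, 25 of 40 members (62.5%) lay above both control libraries, where 39.2% of all genes in the table and 37% of genes with a mean under 5 FPKM did. Both control libraries lay above in 3 members (7.5%), where 40.2% of all genes and 33% of genes with a mean under 5 FPKM did. The groups overlapped in 12 members. Without the 4 members of at least 5 FPKM, the sum was 17.7 and 18.9 FPKM in the controls and 42.8 and 66.1 in the knockouts, a ratio of 2.98.

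The filter for testing, at least 1 FPKM in at least 2 libraries, left 22 members. Of these, 12 passed through both groups, 9 through the knockout libraries alone and 1, Hist1h4c, through the control libraries alone. The test called 13 higher and 1 lower, against 30.1% and 33.8% of all genes, and did not call 8. The 9 that passed through the knockout libraries alone were all called higher, as such a filter makes likely, and so they lend no support to a count. Of the 12 that passed through both groups, 4 were called higher (33.3%) and 1 lower (8.33%), and the first share is near that of all genes. Another filter, a mean over the libraries of at least 1 FPKM, was chosen after seeing the data. It left 18 members, of which 10 were called higher (55.6%, against 28.4% of all genes) and 1 lower (5.56%, against 32.3%). Of those higher calls, only Hist1h4i, Hist3h2a and Hist1h1c had passed the first filter through both groups. The others had control means under 1 FPKM and reached the required mean through the knockouts, so this count lends no support either. With no filter, all 40 members were tested and 15 were called higher (37.5%, against 25.4% of all genes) and 1 lower (2.5%, against 28.6%). The median log2 fold change was then 0.66 for the members and -0.003 for all genes.

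Hist1h4i, an H4 gene of the Hist1 cluster, had the highest mean level of the family and the largest log2 fold change among the tested members. Controls a and b had 8.92 and 13.8 FPKM of it, and knockouts 1 and 2 had 114 and 185 FPKM. The groups were far apart, and knockout 2 was above knockout 1. The log2 fold change was 3.59 ± 0.29 (SE, n = 2 per group, limma, adjusted p = 0.00077), and the group means differed 13.1-fold. In its transcript, 28.9% of the 50-base stretches also occur in another annotated histone gene, so some reads could be shared.

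The other H4 genes differed far less. Together the 11 other H4 rows summed to 12.0 and 11.5 FPKM in the controls and 14.2 and 15 FPKM in the knockouts. Hist1h4a was at 0.721 and 0.448 FPKM in the controls and 1.72 and 2.24 in the knockouts (log2 fold change 0.91, adjusted p = 0.0057, limma), having passed the filter through the knockouts alone. Hist1h4k was at 0.597 and 1.11 against 3.46 and 1.64 (0.90, limma, adjusted p = 0.044), a call that was lost without control a (0.70, adjusted p = 0.13) and without knockout 1 (0.53, adjusted p = 0.12), among others.

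Hist1h4d and Hist1h4c were lower in both knockout libraries than in either control without passing the test. Hist1h4d stood at 2.57 and 2.04 FPKM in the controls and 0.648 and 1.66 in the knockouts (log2 fold change -0.65, limma, adjusted p = 0.074). Hist1h4c stood at 1.11 and 3.11 in the controls and 0.658 and 0.677 in the knockouts (-0.82, limma, adjusted p = 0.076), so that its spread lay in the controls. Hist1h4j (1.05), Hist1h4h (0.39), Hist1h4b (0.25), the joint row of Hist1h4m and Hist1h4n (-0.04) and Hist2h4 (-0.21) were not called either, with log2 fold changes as given. Hist2h4 carries the same 16-base hairpin as Hist1h4i and stayed between 0.301 and 1.23 FPKM. Hist1h4f and Hist4h4 were not tested and reached at most 1.04 and 0.771 FPKM.

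**Figure D2:**
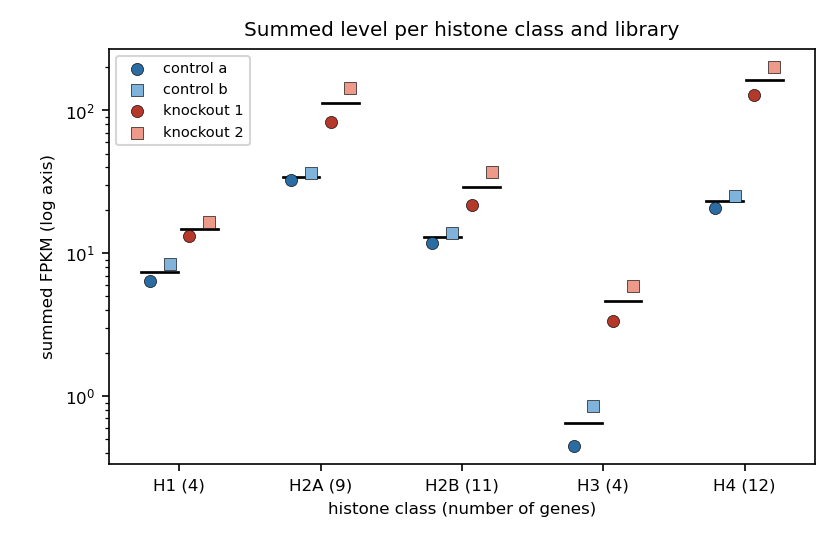
Summed FPKM of the members of each histone class in each library, on a log axis; points are libraries, short bars are group means, and the number of genes is given under each class. Every class sum is higher in both knockout libraries than in both control libraries, from a ratio of 2.0 for H1 to 7.16 for H3.

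In H2A, 1 gene held 92.6% to 93.5% of the class sum in every library, whereas Hist1h4i held 42.6% and 54.5% of the H4 sum in the controls and 88.9% and 92.5% in the knockouts. That H2A gene, Hist3h2a, of the small Hist3 cluster, stood at 30.2 and 33.7 FPKM in the controls and 77.4 and 134 in the knockouts. The control libraries were close to each other and the knockout libraries were not. The log2 fold change was 1.64 ± 0.26 (SE, n = 2 per group, limma, adjusted p = 0.0046). The 8 other H2A genes summed to 2.40 and 2.68 FPKM in the controls and 5.36 and 10.4 in the knockouts.

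Among those low H2A genes, Hist1h2ai was listed at 0 in both controls and at 2.43 and 2.75 FPKM in the knockouts (limma, adjusted p = 0.00048). Hist1h2ah was at 0 and 0.209 in the controls and 1.39 and 1.24 in the knockouts (limma, adjusted p = 0.0026). Both passed the filter through the knockouts alone, and their sequences are nearly those of other members: 90.1% and 90.7% of the 50-base stretches of their transcripts also occur in another annotated histone gene, so reads could be shared between genes. Hist1h2ac was at 0, 0.220, 0.416 and 2.59 FPKM, in the order control a, control b, knockout 1 and knockout 2, and was not tested. Hist1h2ag, listed at 0 in knockout 1 and between 0.939 and 1.08 FPKM in the other libraries, was not called (-0.49, limma, adjusted p = 0.27). Hist1h2ab, Hist1h2ae, Hist1h2af and Hist1h2ak reached at most 1.03 FPKM.

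Members of H2B went both ways, as did those of H4. Hist1h2bc, with the highest mean of the H2B genes, stood at 9.95 and 11.6 FPKM in the controls and 3.93 and 4.03 in the knockouts. The libraries of each group were close to each other and the groups did not overlap. It was the 1 member called lower, with a log2 fold change of -1.24 ± 0.11 (SE, n = 2 per group, limma, adjusted p = 0.00091). Its annotated transcript model, with a second exon and no matching hairpin, differed from that of the other members above 5 FPKM. In that model, 29.4% of the 50-base stretches also occur in another annotated histone gene.

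The 10 other H2B rows summed to 1.93 and 2.43 FPKM in the controls and to 17.7 and 32.9 in the knockouts. Hist2h2be, of the Hist2 cluster, stood at 0.292 and 0.483 FPKM in the controls and 4.30 and 6.47 in the knockouts (log2 fold change 2.18 ± 0.20, limma, adjusted p = 0.00095). None of the 50-base stretches of its annotated transcript occur in another annotated histone gene. Only exact matches were counted, so sharing of shorter reads or of reads aligned with mismatches was not tested. Hist1h2bg stood at 0.696 and 0.431 in the controls and 4.36 and 5.96 in the knockouts (1.97, limma, adjusted p = 0.00092). Both were therefore high in each knockout library and under 1 FPKM in each control library. Unlike Hist2h2be, Hist1h2bg shares 49.7% of its 50-base stretches with another annotated histone gene, so its reads could be shared. Hist1h2bb was at 0 and 0.214 against 1.66 and 3.63 FPKM (1.67, limma, adjusted p = 0.0062). Hist3h2bb-ps, annotated as a pseudogene, was listed at 0 in both controls and at 3.83 and 8.60 in the knockouts (limma, adjusted p = 0.0020). Hist2h2bb, at 0.206 and 0.576 against 1.29 and 1.15, was called (0.69, limma, adjusted p = 0.018) but lost the call without control a (0.49, adjusted p = 0.063), without knockout 1 (0.64, adjusted p = 0.077) or without knockout 2 (0.73, adjusted p = 0.059). These 5 passed the filter through the knockouts alone. Hist1h2bp, Hist3h2ba and Hist1h2bn, not tested, were listed at 0 in both controls and reached 2.45, 1.31 and 1.13 FPKM in knockout 2. Hist1h2be and Hist1h2bk, also not tested, reached 1.06 and 1.19.

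The H3 genes summed to 0.453 and 0.851 FPKM in the controls and 3.37 and 5.96 in the knockouts. Hist1h3g was the 1 tested member, at 0.228 and 0.426 against 1.81 and 2.30 FPKM, and passed through the knockouts alone (log2 fold change 1.20, limma, adjusted p = 0.0021). Hist1h3d was listed at 0 in both controls and at 0.770 and 2.41 in the knockouts. Hist1h3c and Hist1h3a stayed under 1 FPKM in every library. The class ratio of 7.16 thus rests on sums under 1 FPKM in the controls.

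H1, the linker histone that binds between nucleosomes, was carried by Hist1h1c. It stood at 5.57 and 7.06 FPKM in the controls and 11.0 and 14.7 in the knockouts, with no overlap between groups (log2 fold change 0.92 ± 0.18, SE, n = 2 per group, limma, adjusted p = 0.0086). Hist1h1d, Hist1h1e and Hist1h1b were not tested and reached at most 1.32, 0.749 and 0.436 FPKM.

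The levels were then set against the annotated 3′ ends. A transcript was counted as extended where GENCODE M21 carries it at least 100 bases past the hairpin, or past the stop codon where no hairpin matched; this length was chosen after the values were seen. The longest annotated transcript of each gene was used, and the pseudogene Hist3h2bb-ps was put in neither group. A shorter transcript of Hist1h2bp, a gene counted as extended, ends 38 bases past a hairpin. The 4 members with a mean of at least 5 FPKM were all among the 20 extended ones, and none was among the 19 compact ones. Some compact models end at or near the stop codon, such as those of Hist1h2ai (0 bases beyond) and Hist1h2ah (2 bases). For these the 3′ end is not annotated, so compact does not show that it is short. A poly(A) signal, AATAAA or ATTAAA, lay in the last 40 bases of 12 extended and 1 compact transcript. An extended model did not by itself go with a high level, since Hist4h4 runs 2445 bases and Hist1h1d 4884 bases past the hairpin with means of 0.254 and 0.697 FPKM. The median of the members' means was 1.06 FPKM for extended and 0.711 for compact models. Both knockout libraries lay above both controls in 13 of 20 extended and 11 of 19 compact members, and both controls lay above in 3 and 0, where 39.2% and 40.2% of the whole table did. The annotation describes GRCm38 models and not the ones the authors used on mm9.

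**Figure D3:**
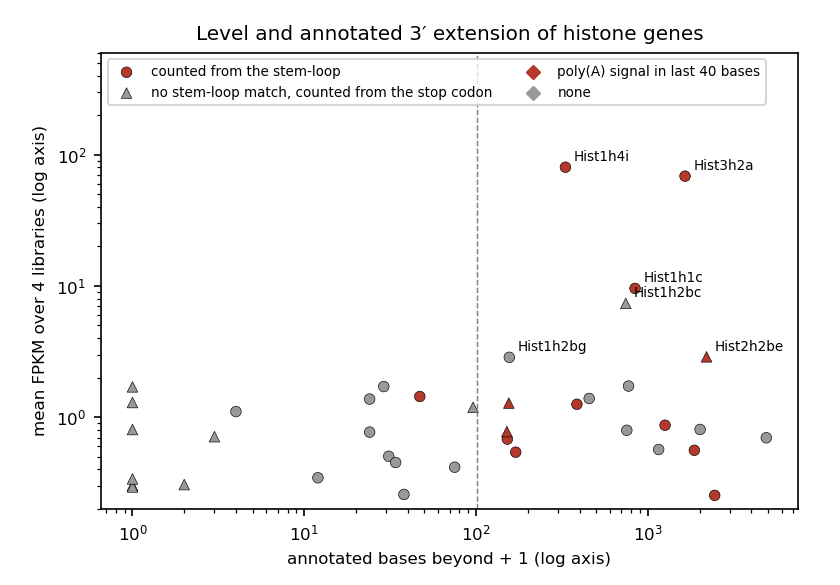
Mean FPKM of each histone gene over the 4 libraries against the annotated bases past the hairpin (circles) or, with no hairpin match, past the stop codon (triangles), 1 base added, both axes on a log scale; red marks have a poly(A) signal in the last 40 bases and the dashed line marks 100 bases. The 4 genes above 5 FPKM lie to the right of the line, among others that lie near 1 FPKM. The pseudogene Hist3h2bb-ps is left out.

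Promoters of 36 members were matched in RefSeq (GRCm38.p6, 250 bases before to 50 after the start). They are printed for Hist1h4i and Hist3h2a, which had the highest levels, and for Hist1h2ac, whose start lies 251 bases from that of Hist1h2bc on the opposite strand, so that its promoter window holds the stretch between the genes. Capitals mark 4 motifs on either strand: the octamer ATTTGCAT, the CCAAT box, the TATA box written as TATAAA, and the H4 motif written as GGTCCG.
Hist1h4i, chr13:22041313-22041612, minus strand: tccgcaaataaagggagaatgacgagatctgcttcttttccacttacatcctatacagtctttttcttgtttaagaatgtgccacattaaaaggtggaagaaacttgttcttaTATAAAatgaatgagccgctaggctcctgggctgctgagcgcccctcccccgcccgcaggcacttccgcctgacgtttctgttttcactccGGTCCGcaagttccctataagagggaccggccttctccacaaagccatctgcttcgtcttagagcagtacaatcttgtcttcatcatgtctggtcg
Hist3h2a, chr11:58954435-58954734, plus strand: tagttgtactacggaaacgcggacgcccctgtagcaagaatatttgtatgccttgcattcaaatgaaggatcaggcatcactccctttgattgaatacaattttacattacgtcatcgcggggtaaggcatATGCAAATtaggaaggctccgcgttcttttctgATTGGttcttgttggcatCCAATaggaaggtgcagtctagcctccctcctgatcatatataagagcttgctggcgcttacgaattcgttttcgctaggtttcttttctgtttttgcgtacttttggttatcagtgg
Hist1h2ac, chr13:23683910-23684209, minus strand: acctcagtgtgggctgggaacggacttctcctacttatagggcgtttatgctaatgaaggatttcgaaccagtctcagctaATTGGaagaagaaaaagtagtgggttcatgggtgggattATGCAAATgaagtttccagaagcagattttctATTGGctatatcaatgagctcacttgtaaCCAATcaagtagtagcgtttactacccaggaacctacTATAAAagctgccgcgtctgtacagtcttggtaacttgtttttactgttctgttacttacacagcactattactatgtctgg
The octamer, the recognition sequence of POU factors such as OCT1, was found in 25% of member promoters and 1.74% of all 32851 promoters. It was found in 55.6% of H2A promoters and 50% of H2B promoters and in none of the H1, H3 and H4 promoters. CCAAT was found in 75% of member promoters against 37.4% of all, and TATAAA in 63.9% against 13.6%. CGGTCC was found in 13.9% against 10.2%, with all 5 matches among the 12 H4 promoters, and TTTCGCGC in 13.9% against 0.323%. After these counts were seen, GGTCCG, which overlaps CGGTCC by 5 letters, was searched as well, and it was found in 11 of 12 H4 promoters, in no other member promoter and in 8.25% of all promoters; it was chosen for its frequency in the H4 sequences, so its share there is no independent result. These are matches of letters and not measured binding. Hist1h4i holds GGTCCG, as 10 other H4 promoters do, and Hist1h4a is the H4 member with a promoter entry and no match.

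In 14 places of the annotation an H2A and an H2B gene start within 600 bases of each other on opposite strands, and both genes were in the table for 5 such pairs. For Hist1h2ac and Hist1h2bc, 251 bases apart, both knockout libraries were above for Hist1h2ac and both controls were above for Hist1h2bc. Hist1h2ac was near the floor, at 0 and 0.220 FPKM in the controls and 0.416 and 2.59 in the knockouts. It did not pass the filter, and with no filter it was not called (limma, adjusted p = 0.14), so a difference in direction is uncertain. Hist3h2a and Hist3h2bb-ps, 173 bases apart, were both higher in the knockouts. In the pairs of Hist1h2ae with Hist1h2bg, Hist1h2ah with Hist1h2bk, and Hist1h2ak with Hist1h2bn, the groups did not overlap for 1 gene and overlapped for the other.

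The Hist1 cluster lies on chromosome 13 and its members in the table span 2.05 Mb, with 51 annotated histone genes and 43 other protein-coding genes. Both knockout libraries were above both controls in 20 of 33 Hist1 rows (60.6%), 2 of 3 Hist2 rows, 3 of 3 Hist3 rows and 0 of 1 Hist4 row, where 39.2% of the whole table and 37% of genes with a mean under 5 FPKM were. Hist1h2bc, Hist1h4c and Hist1h4d, the members in which both controls were above, lie among members that were higher in the knockouts. Of the genes of other families inside the span, 9 were in the table and 6 were tested, of which 5 were called higher, against 30.1% of all genes, and 1 of the 5 had passed the filter through the knockouts alone. These were the zinc finger genes Zfp184 (log2 fold change 0.66) and Zfp322a (0.48), the protease gene Prss16 (0.59), Abt1 (0.59), an activator of basal transcription, and C230035I16Rik (1.63), the last through the knockouts alone. Hfe, a regulator of iron uptake, stood at 2.28 and 1.73 FPKM in the controls and 2.18 and 1.85 in the knockouts (0.01, limma, adjusted p = 0.96). Btn1a1, Btn2a2 and 4933404K08Rik were not tested and stayed under 1 FPKM.

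**Figure D4:**
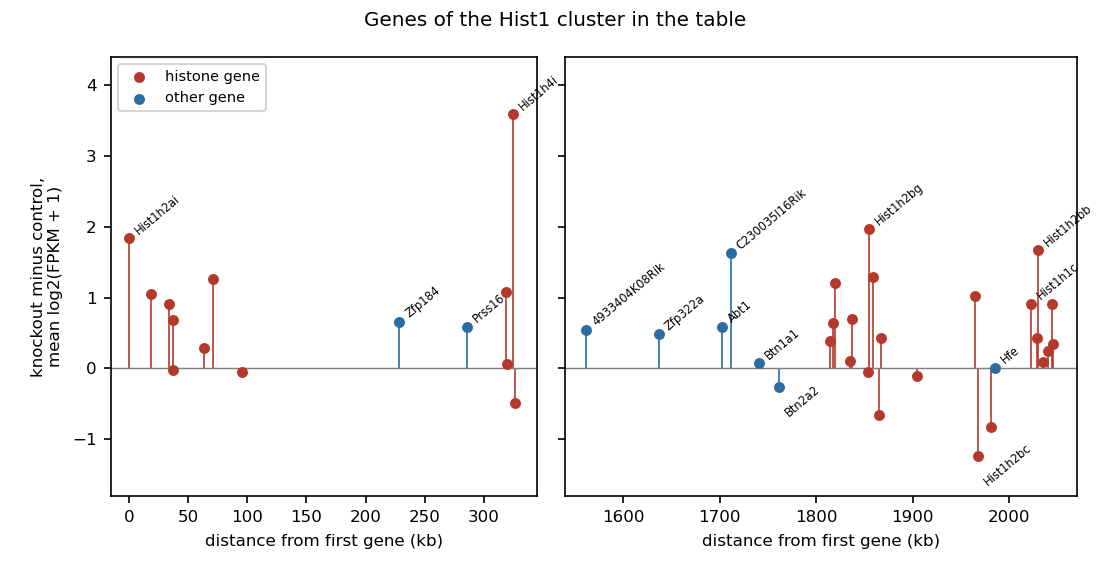
Knockout minus control difference in mean log2(FPKM + 1) for genes of the Hist1 cluster, tested or not, by distance in kb from the first histone gene; red marks histone genes and blue marks other genes, and the stretch between the panels is left out. Hist1h4i stands at 3.59 and Hist1h2bc at -1.24.

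Genes that act on histone supply were read from 4 lists. Variant histones, most of which are made outside S phase too and from polyadenylated mRNAs, had 11 tested genes, of which 8 were called higher (72.7%, against 30.1% of all genes) and 1 lower (9.09%, against 33.8%), with a median log2 fold change of 0.55 against -0.03 for all genes. H1fx and H1f0, linker histone variants, rose by 1.44 and 1.02, and H2afy, which encodes macroH2A, by 0.86. H3f3a, H2afz and Cenpa, the centromeric H3, rose by 0.66, 0.55 and 0.44. H2afx, whose product is phosphorylated at DNA breaks and whose annotated transcript also holds a histone hairpin, stood at 30.1 and 36.0 FPKM in the controls and 24.1 and 25.7 in the knockouts (-0.39, limma, adjusted p = 0.026), a call lost without control b (-0.27), knockout 1 (-0.35) or knockout 2 (-0.44). H3f3b, the most abundant of the list at 1092 to 1253 FPKM, was not called (-0.17, limma, adjusted p = 0.079). The 2 genes for the same H3.3 protein therefore had differences of opposite sign, of which that of H3f3a passed the test.

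The factors that transcribe and process histone mRNA split in both directions, with 11 of 21 tested genes called higher (52.4%, against 30.1% of all genes) and 5 lower (23.8%, against 33.8%) and a median log2 fold change of 0.25. The higher calls were 6 without control a and 7 without control b, and the lower calls were 3 without either one. Slbp, which encodes the stem-loop binding protein, stood at 29.4 and 26.3 FPKM in the controls and 53.9 and 53.2 in the knockouts (0.92 ± 0.08, SE, n = 2 per group, limma, adjusted p = 0.00084). Eri1, an exonuclease that trims the histone stem-loop, rose by 1.02, and Ncbp2, a subunit of the nuclear cap-binding complex, by 1.82. Npat, the cofactor of histone gene transcription, was not called (0.15, limma, adjusted p = 0.25), nor was Casp8ap2 (0.01, limma, adjusted p = 0.94), which encodes FLASH, a component of the 3′ end processing machinery. Ctif, which takes part in cap-dependent translation, was at 8.12 and 7.63 FPKM in the controls and 1.99 and 1.31 in the knockouts (-1.75, limma, adjusted p = 0.00091), and it is named here after its values were seen.

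Of 28 chaperone genes, whose products carry histones to and from DNA, 13 were called higher (46.4%, against 30.1% of all genes) and 8 lower (28.6%, against 33.8%), with a median log2 fold change of 0.18. Without control a, 7 were higher and 4 lower, and without control b, 8 were higher and 3 lower. Asf1b, an H3-H4 chaperone, rose by 2.21 on the log2 scale, and Nasp, which binds H1 and H3-H4, rose by 1.63. Npm1, an abundant nucleolar chaperone, fell by 1.18. Of the large subunits of chromatin assembly factor 1, Chaf1b rose by 1.23, and Chaf1a was not called (-0.13, limma, adjusted p = 0.24).

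S phase genes had 33 of 42 tested members called higher (78.6%, against 30.1% of all genes) and 1 lower (2.38%, against 33.8%), with a median log2 fold change of 1.06. Cdc45 and Mcm7, of the replicative helicase, rose by 1.91 and 1.68, and Pcna, the sliding clamp, by 1.11. Mki67, a marker of cycling cells, stood at 48.8 and 49.3 FPKM in the controls and 54.1 and 50.8 in the knockouts (0.09, limma, adjusted p = 0.26). With the trend of fold change with transcript length removed by a loess curve, the log2 fold changes of Mki67 (0.61), Npat (0.47) and Casp8ap2 (0.38) passed the test, and that of Chaf1a turned to 0.29.

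**Figure D5:**
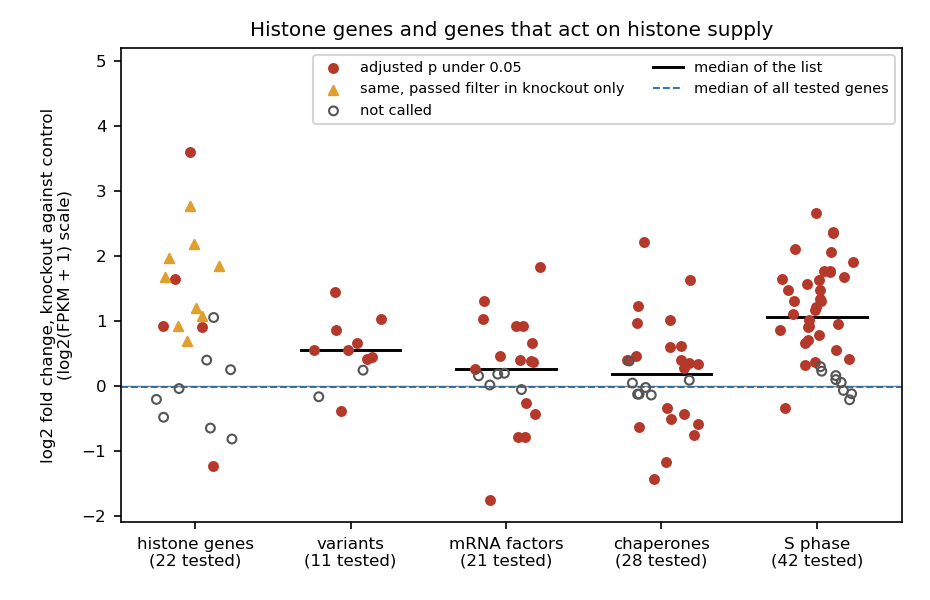
log2 fold change, knockout against control, of tested histone genes and of the genes of 4 lists, each point a gene; filled points have an adjusted p under 0.05, triangles being genes that passed the filter in the knockout libraries alone, black bars are medians of the lists, and the dashed line is the median of all tested genes. List medians run from 0.18 for chaperones to 1.06 for S phase genes; no median is drawn for the histone genes, 9 of which passed through the knockouts alone.

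Other measures moved with the same groups. Transcript length went with the differences across all genes: the median log2 fold change was 0.10 for 229 genes under 500 bases, 0.19 from 500 to 1000 bases and -0.37 for 2555 genes over 5000 bases. With the length trend removed, 11 of 22 tested histone members were called higher (50%, against 32.2% of all genes) and 3 lower (13.6%, against 31.5%), Hist1h4d (-0.86) and Hist1h4c (-1.09) besides Hist1h2bc. Of the 12 that had passed the filter through both groups, 3 were then higher (25%) and 2 lower (16.7%). Of the squamous markers, 0 of 14 tested were called higher and 9 lower (64.3%, against 33.8% of all genes), and their summed level was 9651 to 9869 FPKM in the controls and 5853 to 5991 in the knockouts. Against 30.1% of all genes, all 9 T cell markers in the table were called higher (summed level 16 to 20.3 against 44.9 to 47.8 FPKM), as were 7 of 10 B cell markers (28.5 to 36.3 against 55.3 to 111) and 6 of 11 macrophage markers (551 to 591 against 734 to 859). Of the 7 B cell calls, those of Cr2 and Pax5 passed the filter through the knockouts alone. All 6 tested salivary secretory markers of 8 in the table were higher (6.79 to 37.1 against 1080 to 4857 FPKM), of which Pip, Dcpp1 and Dcpp3 passed through the knockouts alone, and Dcpp2, not tested, was listed at 0 in both controls. T cell, B cell and macrophage sums were higher in knockout 2, as the histone sum was, whereas the salivary sum was higher in knockout 1. The part of these measures in the histone values was not tested.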

How the data were processed

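The 4 libraries, 2 per group, were sequenced for transcript levels. Per the labels' protocols, polyadenylated RNA was purified from Trizol extracts and made into stranded libraries. The submitters' processing notes name TopHat, Cufflinks and mm9; the versions, gene models and strand setting were not stated there. The deposited values were read as FPKM made by the authors, although the sheet is named for CPM. Their depth is unknown, so no counting interval is given, and an exact 0 can be a failed estimate.

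The test took the 12046 genes that reached 1 FPKM in 2 or more libraries. Values were taken as log2(FPKM + 1), which understates changes of low genes, and the model was limma's, version 3.58.1 under R 4.3.3 (trend, two-sided, no covariate), with Benjamini-Hochberg adjustment over all genes tested and a threshold of 0.05. The fit had 2 residual degrees of freedom and a prior of 2.93. Nothing says that libraries are separate animals, so p-values reflect only how these samples vary, which may be technical. Near-identical histone genes can share reads, so single members are uncertain.

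Members and lists were chosen with earlier results of these data known. Named by rule were Kdm4a, every member, the 3 genes of smallest p of each supporting list, a fixed set of histone-supply genes, and other genes inside the Hist1 span. One gene that this rule names is not reported here. Of the listed genes, Zfp473, Trac, Trbc1, Muc19 and Prol1 were not analysed here. Transcripts and lengths came from GENCODE M21 (GRCm38; 99.3% of genes matched) and promoters from RefSeq. Hairpins were searched after the stop codon as 16 bases with GG first, CT at bases 5 and 6, TT next and CC last, that can pair over 6 bases on each side, G-U pairs allowed. The fit was tested on simulated data. The alternatives tried were other pseudocounts, filters, scalings and variance priors, each library left out, removal of a length trend (a loess curve) and of short genes.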

Additional observations from a re-analysis of the deposited data

How the results depend on the processing

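No paired analysis was possible because the control columns carry the same name and no replicate numbers of their own. The count of histone members called higher (13) was 3 under a filter of 5 FPKM, where few members are left, and 12 to 13 with each library left out. The count called lower (1) was 3 with the length trend removed, 3 with genes under 500 bases left out, and 1 to 4 with each library left out (2 without control a, 4 without knockout 2). Of the 14 called members, 12 kept the call under every alternative that gave them a value, and Hist1h4k and Hist2h2bb did not. Apart from Hist2h2bb, the 9 members that passed the filter through the knockouts alone are among these 12. When a library was left out, the filter was still the one set on all 4 libraries. Keeping a call therefore does not remove the selection that the filter made. Variants called lower (1) were 2 with the length trend removed and 0 to 1 with each library left out. Processing factors called higher (11) were 6 to 10 with each library left out (6 without control a, 7 without control b); those called lower (5) were 3 with the length trend removed and 3 to 5 with each library left out (3 without control a or control b). Chaperones called higher (13) were 7 to 15 with each library left out (7 without control a, 8 without control b), and those called lower (8) were 3 to 9 (4 and 3). S phase genes called lower (1) were 0 with no filter, 2 with the length trend removed and 0 to 1 with each library left out. Chaf1a turned from -0.13 to 0.29 with the length trend removed (limma, adjusted p = 0.012). The cause was not tested. With 2 libraries per group and unknown depth, values near 1 FPKM are the least certain.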
